A study of Homo sapiens with 20 samples.

Results

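The family of miR-148 and miR-152, and miR-708, were followed in TPC-1 cells, together with COPZ2 and TENM4, the genes that carry miR-152 and miR-708. The 10 members are 8 mature miRNAs of 2656 listed by the miRNA table (hsa-miR-152-5p, hsa-miR-152-3p, hsa-miR-148a-5p, hsa-miR-148a-3p, hsa-miR-148b-5p, hsa-miR-148b-3p, hsa-miR-708-5p and hsa-miR-708-3p, written below without the species prefix) and 2 genes of 54261 listed by the gene table. They were picked by name with their levels in these very libraries already known. The coculture and control values of the members are therefore a description, and no test is attached to them.

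TPC-1 is a line from a human papillary thyroid carcinoma that carries a CCDC6-RET fusion. In the coculture libraries TPC-1 cells had shared a culture for 48 h with PMN-MDSCs, the polymorphonuclear kind of myeloid-derived suppressor cell, which resembles neutrophils and restrains T cells. The control libraries came from untreated TPC-1 cells. No genotype change or other agent is named in the labels for either group. Each assay, RNA-seq and miRNA-seq, had 6 coculture and 4 control libraries, and the labels do not say whether they came from separate cultures, so any p-value measures the spread between these libraries, which may be technical.

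A miRNA hairpin is cut into a duplex whose arms are named 5p and 3p. One arm is usually loaded into Argonaute and kept as the guide, while its partner, the passenger, is mostly degraded. The guide finds messenger RNAs by its seed, bases 2 to 8, and lowers their stability and translation. The 3p guides of miR-148a, miR-148b and miR-152 share a seed and are known to act on DNMT1, the maintenance DNA methyltransferase, and the COPZ2 and miR-152 locus is often silenced by methylation in carcinomas. The more abundant miR-708 arm is the 5p, and miR-708 is known to be induced with its host TENM4 by CHOP, the stress transcription factor encoded by DDIT3.

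The mature sequences are shown because the grouping into families rests on their seeds, which are in capitals. They are written 5′ to 3′ in DNA letters as deposited, and the 7 of 8 with an entry in RefSeq (GRCh38.p14) were identical to it.
miR-152-3p: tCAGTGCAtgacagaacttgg
miR-148a-3p: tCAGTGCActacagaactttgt
miR-148b-3p: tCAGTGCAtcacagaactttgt
miR-152-5p: aGGTTCTGtgatacactccgact
miR-148a-5p: aAAGTTCTgagacactccgact
miR-148b-5p: aAGTTCTGttatacactcaggc
miR-708-5p: aAGGAGCTtacaatctagctggg
miR-708-3p: cAACTAGActgtgagcttctag
miR-28-5p, no member: aAGGAGCTcacagtctattgag

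The 3 guides of the family differ by few bases, so their counts depend on how the authors' counting treated near matches. Counted from 1 at the 5′ end, miR-152-3p and miR-148b-3p differ by G10C and G20T over 21 bases. From miR-148a-3p, miR-152-3p differs by T9C, G10T and G20T, where the base of miR-152-3p is given first. The miR-148a-3p to miR-148b-3p differences are C9T and T10C. The seeds of the 5p arms are all different, so the passenger arms of the family do not form a seed group. miR-708-5p shares its seed with miR-28-5p and miR-3139.

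The hairpins show how the arms sit on one precursor. RefSeq (GRCh38.p14) listed 3 of the 4, given 5′ to 3′ in RNA letters with the 5p arm and then the 3p arm in capitals.
MIR152: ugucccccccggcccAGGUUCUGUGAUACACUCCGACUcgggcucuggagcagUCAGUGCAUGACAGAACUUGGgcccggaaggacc
MIR148A: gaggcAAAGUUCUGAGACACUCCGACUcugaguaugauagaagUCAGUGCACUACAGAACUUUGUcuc
MIR148B: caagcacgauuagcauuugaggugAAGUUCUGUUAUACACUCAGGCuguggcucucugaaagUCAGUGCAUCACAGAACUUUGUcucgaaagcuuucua

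In the deposited gene table, whose build is GRCh38.p10 per the submitters' processing notes, MIR152 lies on the minus strand of chromosome 17 from 48037161 to 48037247, inside the row of COPZ2 (48026167 to 48048091, minus strand). MIR708 lies on the minus strand of chromosome 11 from 79402022 to 79402109, inside TENM4 (78653283 to 79441019, minus strand). MIR148B lies on the plus strand of chromosome 12 from 54337216 to 54337314, inside COPZ1 (54325090 to 54351851, plus strand), the paralog of COPZ2. MIR148A lies on the minus strand of chromosome 7 from 25949919 to 25949986. The miRNAs of COPZ2, TENM4 and COPZ1 are known to be intronic, and exon boundaries were not used here. The hairpin rows had few RNA-seq counts: over all 10 libraries MIR152 had 1 count, MIR708 8, MIR148B 5 and MIR148A 0.

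The total per library ran from 40237801 to 48197608 gene counts and from 3971608 to 5895539 miRNA counts. The cells matched TPC-1 in their keratins and in the thyroid factor PAX8. KRT18 was at 356 ± 58.6 CPM in coculture and 350.0 ± 43.9 CPM in controls, and PAX8 at 624.9 ± 107 and 508 ± 11.2 CPM (SD, n = 6 and 4; CPM after TMM scaling of library sizes, as throughout). TSHR, the thyrotropin receptor of differentiated thyroid cells, was nearly absent, with 1 count over the coculture libraries and 0 over the controls. Several leukocyte transcripts were higher in the coculture libraries: 12 neutrophil and PMN-MDSC markers summed to 19.8 to 28.5 CPM in coculture against 6.19 to 9.39 CPM in controls. Of these 12, 4 were tested and 3 were called higher by edgeR, which called 1.14% of all genes higher, while FCGR3B, ELANE and CXCR2 had no count in any library. Of 11 monocyte and macrophage markers (90.0 to 175 CPM in coculture, 80.3 to 102 CPM in controls; C1QA at 0 throughout) 5 were tested and 4 called higher, and of 8 pan-leukocyte genes (150.2 to 203 against 142 to 164 CPM) 7 were tested and 5 called higher. Single genes carried much of these sums. LYZ of the neutrophil list averaged 13.9 CPM in coculture and 0.0860 CPM in controls, and CD68 of the monocyte list 120 and 89.1 CPM. LAPTM5 of the pan-leukocyte list averaged 141 and 142 CPM and was not called. CSF3R, MPO, S100A12 and CEACAM8 had 11, 10, 1 and 1 counts over the coculture libraries. A marker near 0 in controls entered the test only through its coculture counts.

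Several libraries stood apart. In RNA-seq, coculture 1 had 67.0 CPM of COL1A1, a collagen of fibroblasts, and the other 9 libraries at most 5.73 CPM. The 14 fibroblast markers summed to 71.5 to 317 CPM in coculture and 83.4 to 107 CPM in controls, with 6 tested and 0 called, where edgeR called 1.32% of all genes. In miRNA-seq, control 4 had 23154 CPM of miR-451a, the red cell miRNA, against 810 to 1091 CPM in the other controls and 243 to 1241 CPM in coculture. Control 4 also held 54.0 CPM of miR-223-3p, a myeloid miRNA, against 3.14 to 3.18 CPM in the other controls and 34.9 to 82.3 CPM in coculture. Summed over 7 miRNAs of blood cells, levels were 381 to 1696 CPM in coculture and 846 to 24019 CPM in controls. Summed over 5 miRNAs of stroma, they were 28.8 to 118 CPM in coculture and 47.2 to 201 CPM in controls. The part of these cells' RNA in the values below was not tested.

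The less abundant arms of the COPZ2 and TENM4 hairpins, miR-152-5p and miR-708-3p, were lower in every coculture library than in any control. miR-152-5p, the passenger of the COPZ2 hairpin, was at 39.0, 43.1, 37.7, 33.7, 39.3 and 41.2 CPM in coculture 1 to 6 and at 52.3, 56.2, 96.5 and 61.8 CPM in controls 1 to 4. The coculture libraries lay close together, and control 3 was far above the other controls. The means were 39.0 ± 3.21 CPM in coculture and 66.7 ± 20.3 CPM in controls (SD, n = 6 and 4), a log2 fold change of -0.77 ± 0.17 (SE, edgeR), or 58.5% of the control mean. Without control 3 the log2 fold change was -0.53, and without controls 3 and 4, a choice made after seeing the data, it was -0.44. In bulk libraries, fewer cells of a type and less RNA per cell cannot be told apart.

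miR-708-3p, the less abundant arm of the TENM4 hairpin, was at 308, 357, 427, 278, 341 and 331 CPM in coculture 1 to 6. In controls 1 to 4 it was at 467, 438, 772 and 572 CPM. The gap between the groups was narrow, since coculture 3 lay just under control 2, and control 3 was again the highest. The means were 340.5 ± 50.7 CPM in coculture and 562 ± 151 CPM in controls, a log2 fold change of -0.72 ± 0.17, or 60.6% of the control mean. It was -0.52 without control 3 and -0.37 without controls 3 and 4.

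Of 797 miRNAs tested, 1.38% had a lower coculture range without overlap, and miR-152-5p and miR-708-3p were 2 of those 11. A higher range without overlap was found in 1.88%. At an adjusted p under 0.05 by edgeR 1.25% were called, 1.13% higher and 0.125% lower. At an unadjusted p under 0.05 it was 11.4%. Since the members were picked from this contrast, nothing is read from these shares.

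**Figure D1:**
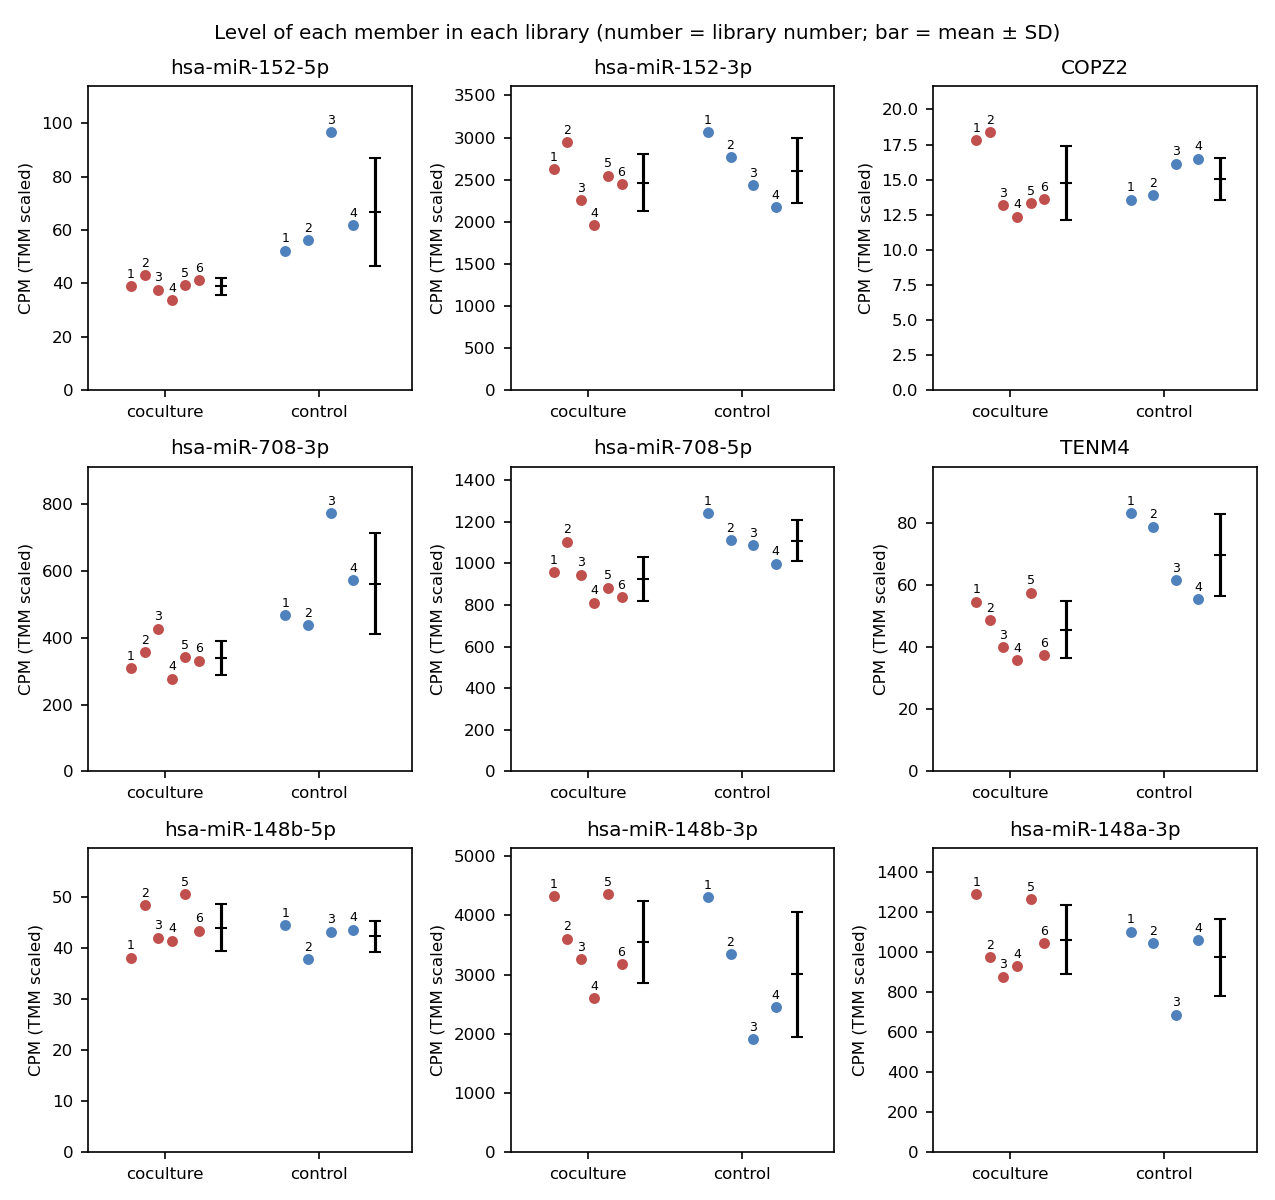
Level of 9 members in each library, coculture left and control right, in CPM on axes that start at 0, with the library number above each point and a bar for the mean ± SD (n = 6 and 4). miR-152-5p and miR-708-3p do not overlap between the groups, TENM4 overlaps by 1 coculture library, and miR-152-3p, miR-148a-3p, miR-148b-5p, miR-148b-3p and COPZ2 overlap widely.

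The more abundant arms of the same hairpins differed less. miR-152-3p was at 2627, 2947, 2256, 1964, 2548 and 2450 CPM in coculture 1 to 6 and at 3061, 2765, 2432 and 2171 CPM in controls 1 to 4. The groups overlapped almost fully. Its log2 fold change was -0.08 ± 0.13. miR-708-5p was at 959, 1105, 946, 811, 883 and 839 CPM in coculture and at 1240, 1111, 1089 and 998 CPM in controls. Of the 6 coculture libraries 5 lay below every control, and coculture 2 lay among the controls. The means were 924 ± 106 and 1110 ± 99.9 CPM, a log2 fold change of -0.26 ± 0.11.

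The miR-148 members showed no such separation. miR-148b-3p, the most abundant guide of the family, had 2607 to 4351 CPM in coculture (median 3432) and 1914, 2451, 3340 and 4304 CPM in the 4 controls, with a log2 fold change of 0.24 ± 0.21. Its passenger miR-148b-5p had 38.1 to 50.5 CPM in coculture (median 42.7) and 37.8 to 44.4 CPM in controls, with a log2 fold change of 0.06 ± 0.13. The control range of miR-148b-5p lay almost wholly within that of coculture. miR-148a-3p had 878 to 1289 CPM in coculture (median 1012) and 1102, 1046, 688 and 1060 CPM in controls 1 to 4, with a log2 fold change of 0.13 ± 0.16. Control 3 was below all other libraries in miR-148a-3p, as it was in miR-148b-3p.

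miR-148a-5p was barely detected, with 3, 1, 3, 1, 3 and 1 counts in coculture 1 to 6 and 2, 4, 4 and 6 counts in controls 1 to 4. It was the 1 member that did not pass the filter on low counts. Most of its values lay at or under a floor of 3 counts, which was 0.534 to 0.715 CPM depending on the library, so no fold is given.

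**Figure D2:**
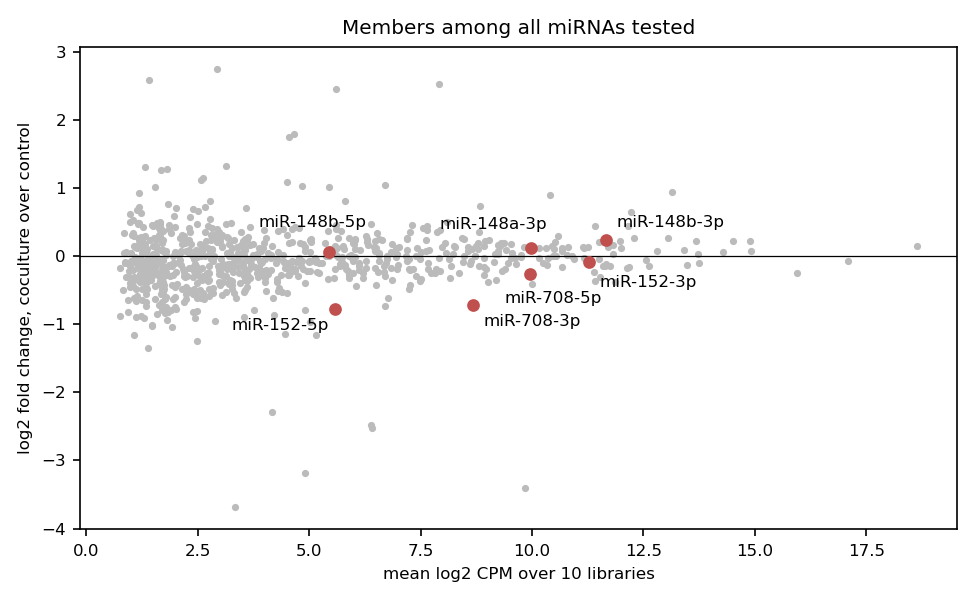
Log2 fold change of coculture over control for each of the 797 miRNAs tested, against its mean log2 CPM over the 10 libraries, with the 7 tested members in red. miR-152-5p (-0.77) and miR-708-3p (-0.72) lie below the bulk of miRNAs of like abundance, and the other 5 members lie between -0.26 and 0.24.

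How the arms of a hairpin divide within a library does not depend on library scaling, so the share of the less abundant arm was taken from the raw counts. For miR-152 the 5p share was 1.46%, 1.44%, 1.64%, 1.69%, 1.52% and 1.66% in coculture 1 to 6 and 1.68%, 1.99%, 3.82% and 2.77% in controls 1 to 4. Coculture 4 (95% Wilson interval 1.46% to 1.95%) and control 1 (1.49% to 1.89%) could not be told apart, and the groups met there. The log2 ratio of 5p to 3p averaged -5.97 ± 0.10 in coculture and -5.32 ± 0.54 in controls (SD, n = 6 and 4), a difference of -0.65. The interval covers counting error only, since the reads carried no stated molecular identifiers.

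For miR-708 the 3p share was 24.3%, 24.4%, 31.1%, 25.5%, 27.9% and 28.3% in coculture 1 to 6 and 27.3%, 28.2%, 41.5% and 36.4% in controls 1 to 4. Controls 3 and 4 were above every coculture library, while controls 1 and 2 lay within the coculture range. The log2 ratio of 3p to 5p averaged -1.45 ± 0.19 in coculture and -1.01 ± 0.44 in controls, a difference of -0.43. For miR-148b the 5p share was 0.874% to 1.56% in coculture (median 1.30%) and 1.02%, 1.118%, 2.21% and 1.75% in controls 1 to 4. Here too controls 3 and 4 held the highest shares.

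The arm shares thus separated controls 3 and 4 from the other 8 libraries more than they separated the groups. Without those 2 controls the difference in log2 ratio was -0.23 for miR-152, -0.07 for miR-708 and 0.21 for miR-148b. Over 160 arm pairs with a mean of at least 10 counts in each arm, controls 3 and 4 held the 2 highest ratios of minor to major arm in 23, or 14.4%. The median deviation over all pairs was 0.02 in control 3 and 0.07 in control 4 on the log2 scale, with a range of -0.08 to 0.05 in the coculture libraries and -0.05 to 0.07 in the 4 controls. Of the 160 pairs 0.625% had a lower and 1.88% a higher coculture range without overlap, and neither miR-152 nor miR-708 was among them. By the size of the difference, miR-152 ranked 6 and miR-708 ranked 18 from the lowest, with a median over all pairs of -0.02.

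**Figure D3:**
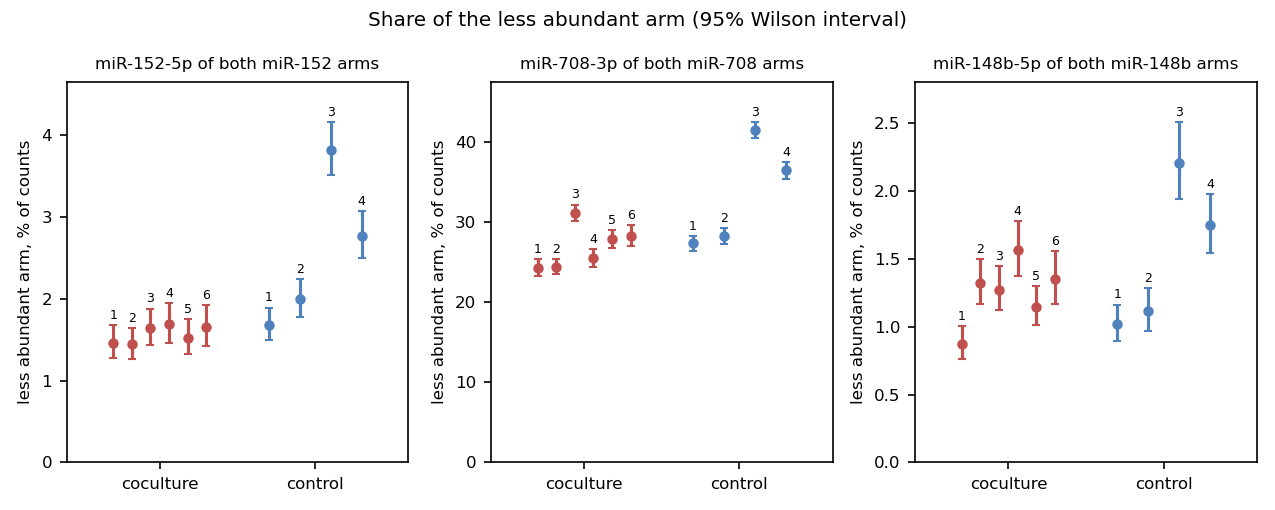
Share of the less abundant arm in the counts of both arms, in percent, for miR-152, miR-708 and miR-148b, per library with its 95% Wilson interval, coculture left and control right. Controls 3 and 4 lie highest in all 3 panels, at 3.82% and 2.77%, 41.5% and 36.4%, and 2.21% and 1.75%.

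**Figure D4:**
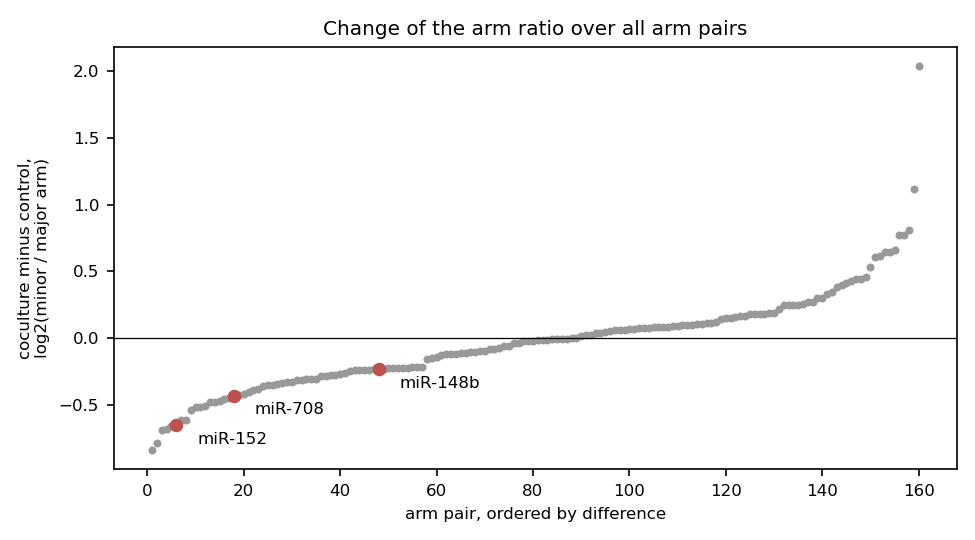
Difference between coculture and control in the log2 ratio of minor to major arm for each of 160 arm pairs, in rising order, with the 3 hairpins in red. miR-152 (-0.65) and miR-708 (-0.43) lie in the lower tail and miR-148b (-0.23) in the broad middle.

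The guide pool that shares one seed was described next, because miR-152-3p, miR-148a-3p and miR-148b-3p can act on the same sites. The shares are of TMM-scaled counts. The summed level was 7081 ± 1082 CPM in coculture (5500 to 8234) and 6583 ± 1537 CPM in controls (5033 to 8467). The ranges overlapped, and control 3 was lowest of all. miR-148b-3p supplied 49.9% ± 2.65 of the sum in coculture and 44.7% ± 5.43 in controls, miR-152-3p supplied 35.003% ± 2.99 and 40.3% ± 5.43, and miR-148a-3p supplied 15.1% ± 1.44 and 15.0% ± 2.53. In control 3 the order was turned, with 48.3% miR-152-3p and 38.0% miR-148b-3p.

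**Figure D5:**
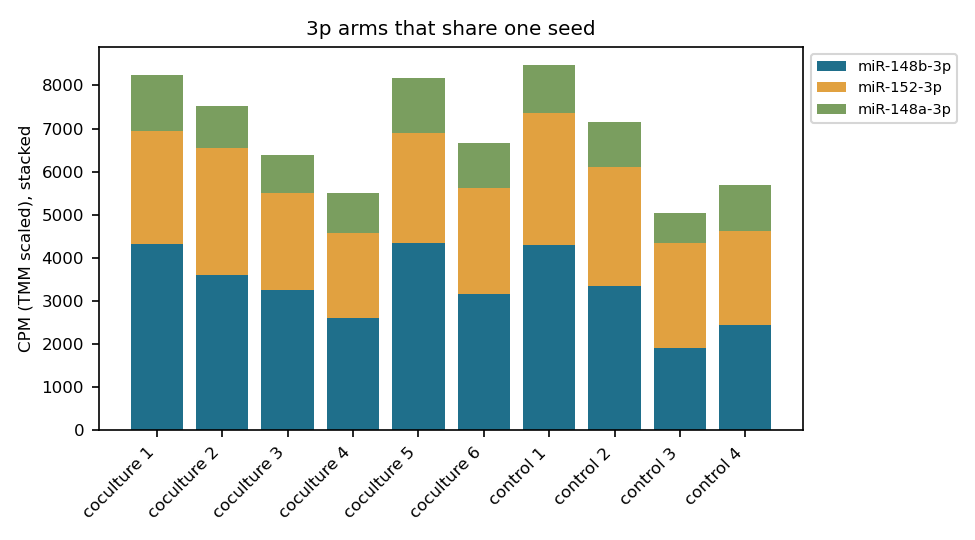
Levels of miR-148b-3p, miR-152-3p and miR-148a-3p stacked per library in CPM, coculture libraries left and controls right. The sum runs from 5500 to 8234 CPM in coculture and from 5033 to 8467 CPM in controls, with the smallest miR-148b-3p part in control 3.

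The seed partner of miR-708-5p did not move with it. miR-28-5p, from a related hairpin, averaged 316 ± 37.1 CPM in coculture and 285 ± 21.7 CPM in controls, a log2 fold change of 0.15 ± 0.12 (edgeR adjusted p = 0.628 over all miRNAs tested). miR-3139 had 23 counts over the coculture libraries and 15 over the controls and was not tested. miR-6874-3p, which shares the seed of miR-148b-5p, had 29 and 17 counts and was not tested.

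TENM4, which hosts miR-708 and encodes teneurin 4, a large transmembrane adhesion protein of neurons and developing tissues, was at 54.5, 48.7, 39.8, 35.8, 57.5 and 37.3 CPM in coculture 1 to 6 and at 83.0, 78.6, 61.5 and 55.4 CPM in controls 1 to 4. Coculture 5 lay above control 4, and the remaining coculture libraries lay below all controls. The means were 45.6 ± 9.26 CPM in coculture and 69.6 ± 13.3 CPM in controls (SD, n = 6 and 4), a log2 fold change of -0.61 ± 0.16, or 65.5% of the control mean. Of 15629 genes tested 1.17% had a lower coculture range without overlap and 0.186% were called lower by edgeR, shares from which nothing is read for a gene picked from this contrast. The TENM4 log2 fold change stood at -0.72 without coculture 1 and 2, and at -0.82 without controls 3 and 4. It shrank to -0.52 without control 1 and to -0.55 without control 2. Within the controls TENM4 was higher in 1 and 2 than in 3 and 4. The same held for miR-708-5p, at 1240, 1111, 1089 and 998 CPM in controls 1 to 4. miR-708-3p was instead higher in 3 and 4 than in 1 and 2. Nothing states that libraries with the same number in the 2 assays shared RNA.

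COPZ2, which hosts miR-152 and encodes a zeta subunit of the COPI vesicle coat, was at 17.8, 18.4, 13.2, 12.4, 13.3 and 13.6 CPM in coculture 1 to 6 and at 13.6, 13.9, 16.1 and 16.5 CPM in controls 1 to 4. Coculture 1 and 2 were the 2 highest of all libraries, and coculture 3 to 6 lay at or under the lowest control or just above it. The means were 14.8 ± 2.60 CPM in coculture and 15.0 ± 1.498 CPM in controls, a log2 fold change of -0.02 ± 0.14. Without coculture 1 and 2 it was -0.21. Per kilobase of the deposited length, COPZ2 was at 5.63 ± 0.993 CPM in coculture and 5.73 ± 0.571 in controls, and TENM4 at 3.10 ± 0.629 and 4.73 ± 0.900. COPZ1, the paralog that hosts miR-148b, was at 89.7 ± 10.3 CPM per kilobase in coculture and 80.6 ± 1.84 in controls, far above both.

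The host and its miRNAs were compared over the 6 coculture libraries by their shared number, for 6 pairs. COPZ2 and miR-152-3p gave the strongest relation, with Pearson's r = 0.83 (exact permutation p = 0.0264, two-sided, 0.158 after Benjamini-Hochberg adjustment over the 6 pairs) and Spearman's rho = 0.94 (exact permutation p = 0.0167, adjusted 0.1). Without the 2 libraries farthest from the median of COPZ2, r was 0.92 over 4. It was 0.56 on library totals in place of TMM sizes. Neither p passed the adjustment, and for the other 5 pairs the adjusted p was 0.537 or more for r and 0.175 or more for rho. On library totals r turned negative in 4 pairs. TENM4 and miR-708-5p gave r = 0.49 (exact permutation p = 0.322) and rho = 0.60 (0.242), and r was 0.98 over 4 libraries. TENM4 and miR-708-3p gave r = 0.06 (exact permutation p = 0.894) and rho = 0.31 (0.564). COPZ2 and miR-152-5p gave r = 0.65 (exact permutation p = 0.179) and rho = 0.83 (0.0583). For COPZ1 with miR-148b-3p r was 0.24 (exact permutation p = 0.643), and with miR-148b-5p it was 0.13 (0.835).

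Genes beside the hosts were taken from the deposited coordinates as a local reference. CDK5RAP3 and NFE2L1, the nearest tested genes on either side of COPZ2, had log2 fold changes of 0.15 ± 0.10 and 0.11 ± 0.09 (edgeR adjusted p = 0.662 and 0.744). NARS2, on one side of TENM4, encodes the mitochondrial asparaginyl-tRNA synthetase and was at 21.3 ± 2.45 CPM in coculture and 21.95 ± 1.33 CPM in controls, a log2 fold change of -0.04 ± 0.11 (edgeR adjusted p = 0.927). On the other side lay LOC105369408, at 0.349 ± 0.201 CPM in coculture and 0.119 ± 0.0926 CPM in controls, a log2 fold change of 1.55 ± 0.62 (edgeR adjusted p = 0.413). Differences between the hosts and their neighbors were not tested.

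By Pearson's r of log2 CPM over the 10 libraries, among 10356 other genes of at least 5 CPM, TENM4 was most like FAT4, a giant protocadherin (r = 0.98), VCAN, the matrix proteoglycan versican (0.97), and FLG, the epidermal protein filaggrin (0.96). FLG had 9.36, 5.31, 4.75, 4.02, 9.30 and 4.29 CPM in coculture 1 to 6 and 17.5, 25.2, 12.4 and 12.1 CPM in controls 1 to 4. The log2 fold change was -1.45 ± 0.29 for FLG, -0.91 ± 0.24 for FAT4 and -0.74 ± 0.21 for VCAN. These genes were chosen by their likeness to TENM4 over both groups, so no test is given for them. COPZ2 was most like MYL6B, a myosin light chain (r = 0.98), IMPDH2, of guanine nucleotide synthesis (0.98), and C12orf57 (0.97). Among 419 miRNAs of at least 10 CPM, miR-152-3p was most like miR-34a-5p (0.91), miR-99b-5p (0.90) and miR-598-3p (0.87). miR-148a-3p was most like miR-15b-5p (0.94), miR-126-5p (0.91) and miR-548ap-3p (0.90), and miR-708-5p was most like miR-30a-5p (0.91), miR-1257 (0.83) and let-7b-5p (0.82). The libraries share their depth and group, so these values describe and carry no p.

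Of 37 listed genes reported as targets of the miR-148 and miR-152 guides, 32 were tested and 0 called in either direction. Over all genes edgeR called 1.32%, 1.14% higher and 0.186% lower. In a list this short a count of 0 is near these shares, so nothing is read from it. At an unadjusted p under 0.05 there were 5 of 32, against 9.66% of all genes, and the median log2 fold change was -0.06 beside 0.01 for all genes. ERRFI1, a feedback inhibitor of the EGF receptor, came nearest. It had 191, 239, 177, 218, 177 and 178 CPM in coculture 1 to 6 and 154, 151, 129 and 119 CPM in controls 1 to 4. The groups did not overlap, and the log2 fold change was 0.51 ± 0.11 (edgeR adjusted p = 0.0559). Of all genes 2.45% had a higher coculture range without overlap. DESeq2 called ERRFI1 higher. IRS1, an adaptor of the insulin receptor, was at -0.39 ± 0.13, DNMT3B, a de novo DNA methyltransferase, at 0.54 ± 0.21 and ITGA5, the fibronectin receptor chain, at 0.30 ± 0.13, with edgeR adjusted p-values of 0.261, 0.384 and 0.474. DNMT1, named for its known role and not by the naming rule, was at 333 ± 59.2 CPM in coculture and 394 ± 24.6 CPM in controls (edgeR adjusted p = 0.586).

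Of 20 listed genes reported as targets of miR-708, 18 were tested and 0 called, where edgeR called 1.32% of all genes. In a list this short a count of 0 is near that share, so nothing is read from it. At an unadjusted p under 0.05 there were 5 of 18, against 9.66% of all genes. The median log2 fold change was 0.05 beside 0.01 for all genes. PTGES, the prostaglandin E synthase, had 11.1, 6.13, 0.763, 1.28, 1.21 and 1.95 CPM in coculture 1 to 6 and 0.513, 0.297, 0.0970 and 0.113 CPM in controls 1 to 4. Every coculture library was above every control, with coculture 1 and 2 far above the rest, and the log2 fold change was 3.85 ± 0.89 (edgeR adjusted p = 0.0630). Without coculture 1 and 2 the log2 fold change was 2.31. Controls 1 to 4 had 24, 12, 4 and 5 counts of PTGES, so controls 3 and 4 lay near the floor of 3 counts. SMAD3, which carries TGF-beta signals, was at 318 ± 50.2 CPM in coculture and 180 ± 60.6 CPM in controls (0.83 ± 0.19, edgeR adjusted p = 0.0732). CCND1, the G1 cyclin, was at -0.29 ± 0.08 and PTGS2, the cyclooxygenase 2, at 0.74 ± 0.29, with edgeR adjusted p-values of 0.163 and 0.394. DESeq2, an alternative test, called 2 of these genes higher (PTGES and SMAD3) and 1 lower (CCND1).

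The unfolded protein response was listed because CHOP is known to drive TENM4 with miR-708. Of its 20 tested genes 0 were called by edgeR, which called 1.32% of all genes. At an unadjusted p under 0.05 there were 2 of 20, against 9.66% of all genes. Both counts are near the shares over all genes, so nothing is read from them. The median log2 fold change was 0.09 beside 0.01 for all genes. DDIT3 itself, named for its role, was at 8.78 ± 0.880 CPM in coculture and 8.62 ± 0.592 CPM in controls, a log2 fold change of 0.03 ± 0.12 (edgeR adjusted p = 0.96). ATF3, a stress-induced factor, was at 0.84 ± 0.21 and ATF4, which acts upstream of CHOP, at 0.28 ± 0.08, with edgeR adjusted p-values of 0.0984 and 0.186. The ATF4 ranges did not overlap, with 679 to 735 CPM in coculture and 506 to 675 CPM in controls. Of all genes 2.45% had a higher coculture range without overlap. XBP1 and ERN1, the factor and the sensor of another branch of the response, were at 0.13 ± 0.07 and 0.35 ± 0.19 (edgeR adjusted p = 0.588 and 0.594).

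The partners of the host proteins were also not called. Of 8 COPI coat genes tested with edgeR, 0 were called and 0 had an unadjusted p under 0.05, with a median log2 fold change of 0.08. Over all genes 1.32% were called and 9.66% had an unadjusted p under 0.05, with a median of 0.01. COPZ1 was at 0.15 ± 0.09, COPE at 0.17 ± 0.10, COPG1 at 0.09 ± 0.08 and COPB1 at 0.07 ± 0.08, subunits of the same coat, with edgeR adjusted p-values from 0.616 to 0.803. Of 9 teneurins, latrophilins and FLRT proteins, which bind one another at the cell surface, 4 were tested and 0 called, with 0 at an unadjusted p under 0.05 and a median of 0.06. In lists this short a count of 0 is near the shares over all genes, so nothing is read from either count. TENM3, the teneurin beside TENM4 that was tested, was at 117 ± 25.5 CPM in coculture and 129 ± 39.0 CPM in controls (-0.14 ± 0.20, edgeR adjusted p = 0.868). ADGRL1, ADGRL2 and FLRT2 were at 0.26 ± 0.17, 0.25 ± 0.26 and -0.15 ± 0.18, with edgeR adjusted p-values of 0.66, 0.80 and 0.818.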

How the data were processed

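Raw read counts, not normalized, were deposited by the authors in separate tables for gene symbols and mature miRNAs. The submitters' processing notes name HISAT2 2.0.4, BWA and GRCh38.p10 without saying what each was for. Which counter and annotation were used, and whether counting was stranded, is not given in the sources used here. Counts of near-identical miRNAs and overlapping genes are therefore uncertain. Value columns left unused numbered 0.

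Each assay was fitted alone in R 4.3.3 with edgeR 4.0.16 (TMM, filterByExpr by group, robust glmQLFit and glmQLFTest, coculture minus control), with Benjamini-Hochberg adjustment over all features at 0.05. The SE is the log2 fold change divided by the square root of F. limma 3.58.1 (voom) and DESeq2 1.42.0 were alternatives. The scripts were tested on simulated counts. Exact permutation p-values enumerate all pairings. No pair of libraries agreed within sampling noise (chi-square per degree of freedom at least 7.17 in RNA-seq and 31.6 in miRNA-seq).

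The members and lists were chosen with earlier results of these data known. Named were all members and COPZ1, every called gene and up to 4 tested genes of lowest adjusted p per list, genes flanking the hosts, seed partners and the 3 most similar rows per host or guide. Of the marker lists, only genes that bear on a result or on the identity of the cells are given. The keratin list (6 genes, 511 to 688 CPM summed in coculture and 523 to 670 in controls) and the thyroid list (6 genes, 516 to 781 and 507 to 533 CPM) served to check the line. Of these, 4 keratin list genes and 3 thyroid list genes were tested and edgeR called 0 in either, where it called 1.32% of all genes.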

Additional observations from a re-analysis of the deposited data

Results flagged for a closer look

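Of 30 groups of values examined for a library far from the rest of its group, 1 held such a library, where chance gives about 1 in 20. miR-148a-3p in control 3 was at 688 CPM and the next control at 1046 CPM.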

How the results depend on the processing

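Log2 fold changes of miR-152-5p, miR-708-3p, miR-708-5p and TENM4 kept their direction under every alternative run. miR-152-3p ran from -0.21 to -0.00046 and miR-148a-3p from 0.0053 to 0.21, with ends too small to give a direction. COPZ2 ran from -0.21 to 0.10, miR-148b-5p from -0.0039 to 0.13 and miR-148b-3p from -0.07 to 0.46. Without controls 3 and 4, a choice made after seeing the data, miR-152-5p was at -0.44 and miR-708-3p at -0.37, and the arm ratios differed by -0.23 (miR-152), -0.068 (miR-708) and 0.21 (miR-148b). The count of miRNAs called lower was 1, but 3 with DESeq2, 4 with no filter and 0 with RLE, library totals, totals without miR-21-5p, limma-voom, the stricter filter, the replicate block and on leaving out coculture 1 and 2 or controls 3 and 4. Leaving out single libraries gave 0 to 1 lower miRNAs (1 only without control 1) and 5 to 12 higher ones, and 4 to 36 lower and 112 to 204 higher genes, the fewest without control 4. The 178 higher and 29 lower genes became 333 and 106 with DESeq2, 100 and 10 with the replicate block, and 33 and 0 without controls 3 and 4, and the lower genes were 112 without coculture 1 and 2. The lists, with 0 called, gained single genes. Among miR-148 and miR-152 targets these were 1 higher (ERRFI1) with DESeq2, no filter and without coculture 1 and 2, and 1 lower (TGFA) in the last. Among miR-708 targets they were 2 higher with DESeq2 and with the replicate block (PTGES, SMAD3), 1 higher without coculture 1 and 2, 0 to 1 higher on leaving out single libraries, and 1 lower with DESeq2 (CCND1) and without coculture 1 and 2 (MMP2). In the unfolded protein response they were 1 higher with DESeq2 (ATF3) and 1 lower without coculture 1 and 2 (CHAC1). On library totals r reversed to -0.010 for COPZ2 with miR-152-5p, -0.15 for TENM4 with miR-708-5p, -0.35 for TENM4 with miR-708-3p and -0.25 for COPZ1 with miR-148b-5p. On leaving out single libraries r ran from -0.47 to 0.50 for TENM4 with miR-708-3p and from -0.64 to 0.48 for COPZ1 with miR-148b-5p, negative without coculture 4 and without coculture 2. The cause of these changes was not tested. Same-numbered libraries of the groups deviated together with r of -0.083 to 0.35 over genes and of -0.034 to 0.37 over miRNAs, so the replicate block rests on a shared number only. miR-148a-5p is limited by depth.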
